A study of Mus musculus with 6 samples.

Results

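The 37 genes described here encode enzymes that build sterols and fatty acids, together with a group of regulators of these routes. They are 7 enzymes of the mevalonate pathway, 11 enzymes that turn its product into squalene and sterols, 6 regulators, 3 enzymes of fatty acid synthesis, 4 fatty acid desaturases, 5 elongases and 1 acyl-CoA synthetase. The regulators include Stard4, a carrier of cholesterol between membranes, by the grouping used here. The members were matched by gene symbol, and all 37 were found among the 26264 genes of the raw count table. The counts come from bulk RNA sequencing of neural stem cells grown from the spinal cord of adult mice on a C57BL6J background, in medium with the growth factors EGF and FGF2. The cells carried a PDGFRa-GFP reporter, in which green fluorescent protein (GFP) marks activity of the gene of the PDGF receptor alpha, a surface receptor of oligodendrocyte precursors, and were sorted by fluorescence into 3 GFP-positive and 3 GFP-negative samples. The genotype label is PDGFRaGFP/+ for the GFP-positive samples and PDGFRaGFP/- for the GFP-negative ones, and the labels do not say whether this names an allele or the sorted fraction. Sorting by this reporter separates cells by that activity, so each fraction may hold several cell types or states. The study set out to describe how these cells start to make oligodendrocytes.

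Most animal cells make cholesterol from acetyl-CoA through mevalonate, squalene and lanosterol, and fatty acids from acetyl-CoA through malonyl-CoA. Transcription of both routes is driven by the SREBP proteins, which are made as membrane precursors, escorted from the endoplasmic reticulum by SCAP and held there by the INSIG proteins when sterols are plentiful. In the central nervous system almost all cholesterol is made locally. Astrocytes supply it to other cells in lipoprotein particles, and oligodendrocytes use large amounts of it, and of fatty acids, for myelin.

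Libraries held 36846570, 45207335 and 36922473 counts in the GFP-positive replicates 1, 2 and 3, against 32869705, 31148620 and 31067850 in the GFP-negative ones. Levels are given below in CPM, counts scaled to a common library size, and differences as log2 fold changes of GFP-positive over GFP-negative with their standard error (SE), so that a negative value means a lower level in GFP-positive cells. A gene is called where edgeR's quasi-likelihood test gave an adjusted p below 0.05, over 14554 genes tested. Pdgfra itself was 237.1, 204.5 and 244.6 CPM in GFP-positive libraries and 8.04, 19.3 and 13.9 CPM in GFP-negative ones (log2 fold change 4.06, SE 0.27, adjusted p = 1.28e-05), which fits the sorting labels. The 2 fractions differed over much of the transcriptome, with 55.4% of tested genes called, 29.2% lower and 26.1% higher in GFP-positive cells, and the median log2 fold change of all tested genes was -0.01. The quartiles of all tested genes were -0.44 and 0.30.

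Most of the sterol genes and all 4 desaturases were lower in GFP-positive cells, whereas none of the 3 enzymes of fatty acid synthesis was. Of the 37 members, 27 were lower, 3 were higher and 7 were not called, against background shares of 29.2% lower and 26.1% higher, and the members' median log2 fold change was -0.71. In 25 members all GFP-positive libraries lay below all GFP-negative ones, in 3 they lay above, and in 9 the groups overlapped. The share of all tested genes that separated in this way was not counted, so these 3 numbers describe the members only. All 37 passed the filter on low counts, but Idi1 passed only because of its GFP-negative libraries. Without it, 26 of 36 members were lower, 3 were higher, and the median was -0.64. In bulk RNA, fewer cells of a type and less RNA per cell cannot be told apart, so none of these values says which cells of a fraction carried the difference. The plots of levels and of fold changes give every gene by branch.

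**Figure D1:**
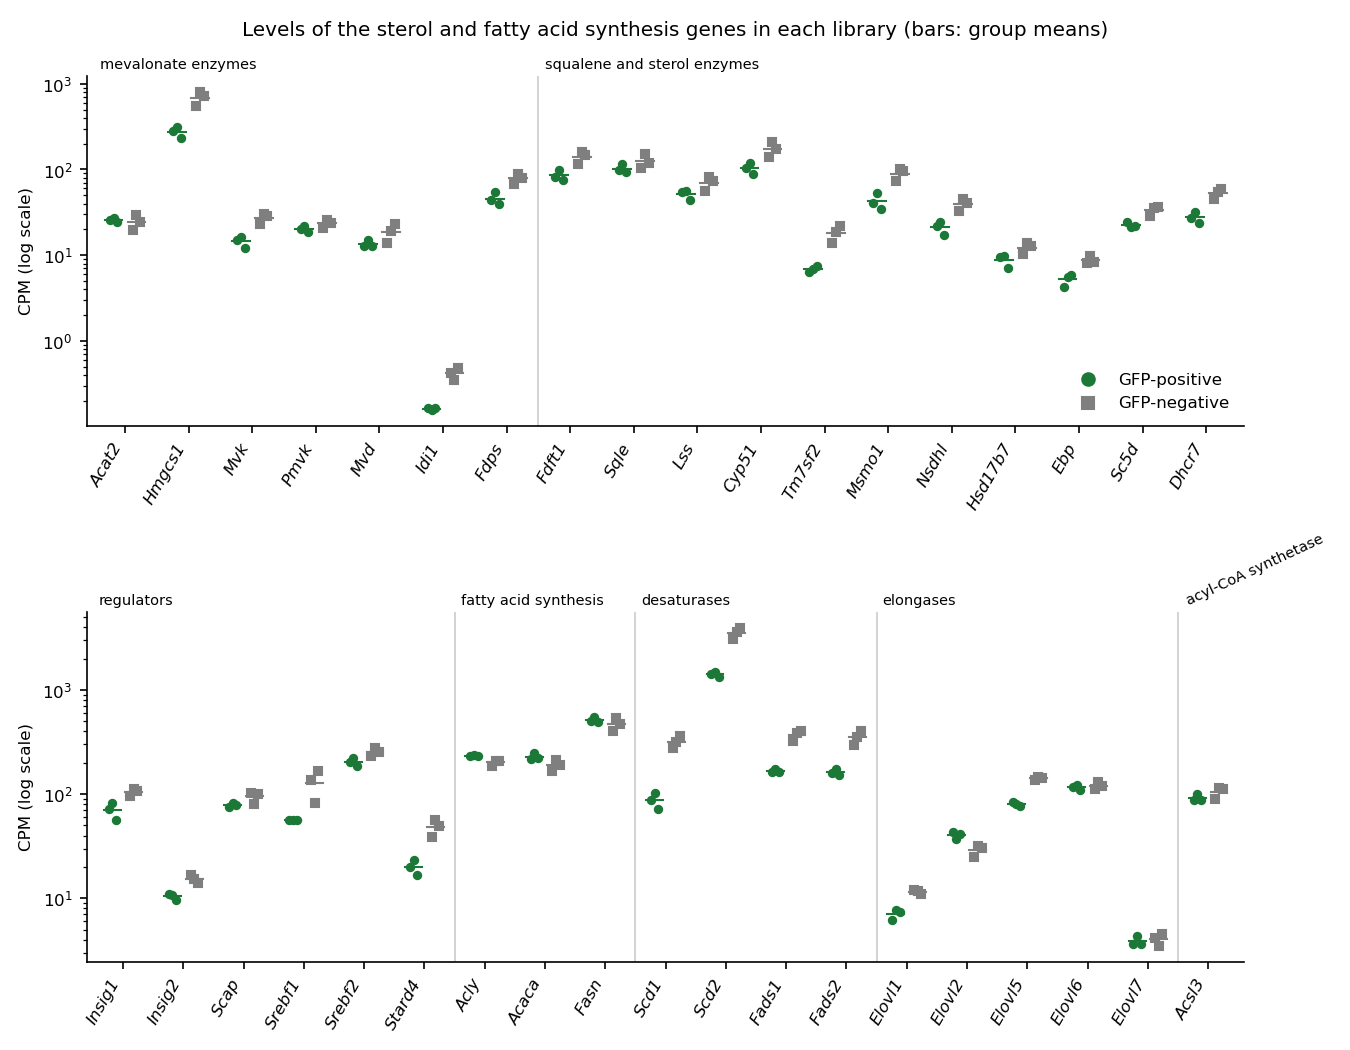
Level of each of the 37 genes in the 6 libraries, in CPM on a log axis, grouped by branch, with GFP-positive and GFP-negative libraries as separate markers. The 4 desaturases are separated without overlap, Acly, Acaca and Elovl2 lie the other way round, and 9 genes overlap.

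**Figure D2:**
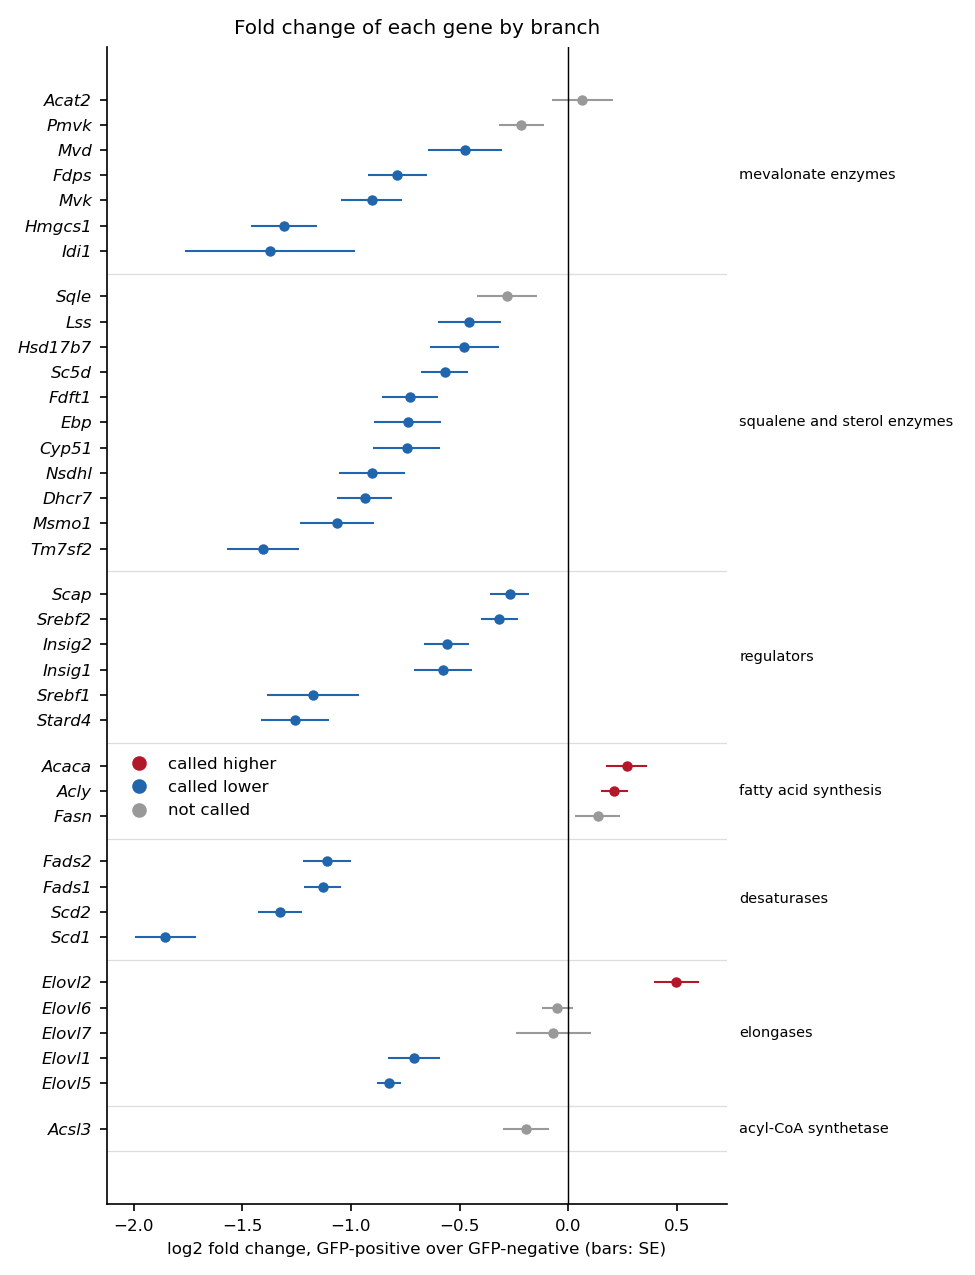
Log2 fold change of each gene, GFP-positive over GFP-negative, with bars of 1 SE on each side, by branch. All called mevalonate, sterol, regulator and desaturase genes lie left of 0, and the 3 genes called higher are Acaca, Acly and Elovl2.

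SREBP proteins act at promoters through sterol regulatory elements, often beside CCAAT boxes bound by the factor NF-Y. On which of these genes they act in these cells was not measured. RefSeq promoters of build GRCm38.p6, which run from 250 bases before to 50 bases after each listed start, were matched by symbol for 30 of the 37 members, of which 7 had more than 1. The windows were searched on both strands for TCACNCCAC, a consensus core of the sterol regulatory element, for the shorter CACNCCAC that lies inside it, and for CCAAT. This box was in the windows of 23 of the 30 members, 76.7%, against 41.1% of all 27025 genes with a promoter. It was in 9 of 9 sterol enzymes, 5 of 6 mevalonate enzymes, 4 of 5 regulators, 2 of 3 fatty acid synthesis genes, 2 of 5 elongases, the 1 acyl-CoA synthetase and none of the desaturases, of which 1 had a window. The full element core was found in 1 member, Hmgcs1, which is 3.33% of members against 1.44% of all genes. The shorter form was in 4 members, Hmgcs1, Insig1, Acat2 and Elovl7, 13.3% against 7.12% of all genes. These letters are a description of the windows and no measure of binding, and the sequencing files use another build, mm39.

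The 3 windows below, picked after the values were known, show what the search found in a called mevalonate gene, a called sterol gene and a fatty acid gene that was not called. Capitals mark TCACNCCAC and CCAAT, which reads ATTGG where it lies on the opposite strand, and each window is given 5′ to 3′ on the gene's own strand. Hmgcs1 is at chr13:119690101-119690400 on the plus strand, Msmo1 at chr8:64733529-64733828 on the minus strand, and Fasn at chr11:120824498-120824797 on the minus strand.
Hmgcs1: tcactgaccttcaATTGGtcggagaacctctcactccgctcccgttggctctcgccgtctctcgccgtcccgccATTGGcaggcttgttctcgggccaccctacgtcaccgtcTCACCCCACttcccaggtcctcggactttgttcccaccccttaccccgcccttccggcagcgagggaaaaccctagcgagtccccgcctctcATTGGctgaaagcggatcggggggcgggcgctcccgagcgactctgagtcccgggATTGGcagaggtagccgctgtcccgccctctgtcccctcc
Msmo1: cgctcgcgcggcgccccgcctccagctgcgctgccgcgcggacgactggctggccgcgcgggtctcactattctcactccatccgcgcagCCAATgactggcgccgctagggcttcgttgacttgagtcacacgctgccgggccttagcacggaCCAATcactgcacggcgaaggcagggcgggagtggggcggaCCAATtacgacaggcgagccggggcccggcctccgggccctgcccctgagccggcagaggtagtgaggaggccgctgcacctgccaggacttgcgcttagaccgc
Fasn: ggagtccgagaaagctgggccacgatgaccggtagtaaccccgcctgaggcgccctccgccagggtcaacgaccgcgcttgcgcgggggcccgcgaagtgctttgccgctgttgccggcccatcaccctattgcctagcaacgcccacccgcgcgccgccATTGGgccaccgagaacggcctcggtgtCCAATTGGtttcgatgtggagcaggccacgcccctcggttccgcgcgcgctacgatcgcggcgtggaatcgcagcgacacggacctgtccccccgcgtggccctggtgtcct
The Hmgcs1 window holds the element core and 4 reversed CCAAT boxes. The Msmo1 window holds 3 CCAAT boxes in the forward direction and no element core. The Fasn window also holds 3 CCAAT boxes, of which 2 overlap as CCAATTGG, although the gene was not called.

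The mevalonate pathway was lower in 5 of its 7 genes (71.4%) and higher in none, against 29.2% and 26.1% of all tested genes. The median log2 fold change of the 7 was -0.79. Leaving out Idi1, which passed the filter only through its GFP-negative libraries, 4 of 6 were lower and the median was -0.63. Its first committed enzyme, Hmgcs1 (Entrez 208715), which makes HMG-CoA, had 280.1, 312.3 and 235.1 CPM in GFP-positive libraries, against 543.1, 795.4 and 710.7 CPM in GFP-negative ones. The highest GFP-positive library was well below the lowest GFP-negative one, and the means were 276 ± 38.8 and 683 ± 128 CPM (SD, n = 3 each; log2 fold change -1.31, SE 0.15, adjusted p = 0.00019). Mvk, mevalonate kinase, had 14.9, 16.4 and 12.2 CPM in GFP-positive libraries and 23.0, 30.0 and 28.6 CPM in GFP-negative ones. These groups did not overlap either (log2 fold change -0.91, SE 0.14, adjusted p = 0.000933). Fdps, which joins the isoprene units into farnesyl diphosphate, the branch point to sterols and to protein prenylation, had 43.5, 53.9 and 39.3 CPM in GFP-positive libraries and 67.5, 88.8 and 79.6 CPM in GFP-negative ones (log2 fold change -0.79, SE 0.14, adjusted p = 0.00152). It too was lower in every GFP-positive library. In the reference used here, a gene model on the same strand, Gm43738, covers 77.4% of the exon bases of Fdps. That symbol is not among the genes of the raw counts, so no reads were counted for it under that name. The annotation used for counting is not given, so whether the model affected the counts of Fdps cannot be told.

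Mvd and Idi1 were called lower on weaker grounds. Mvd, mevalonate diphosphate decarboxylase, averaged 13.5 ± 1.18 CPM in GFP-positive libraries and 18.8 ± 4.50 CPM in GFP-negative libraries, and its groups overlapped (SD, n = 3 each; log2 fold change -0.47, SE 0.17, adjusted p = 0.045). The isomerase Idi1 was close to the detection limit, with 6, 7 and 6 raw counts in GFP-positive libraries against 14, 11 and 15 in GFP-negative ones (log2 fold change -1.37, SE 0.39, adjusted p = 0.0175). The call of Mvd was lost in 7 of 9 fits with a library or pair left out (adjusted p up to 0.329, the highest without number 3), in those without GFP-positive replicate 1, 2 or 3, GFP-negative replicate 2 or 3, or number 2 or 3. The call of Idi1 was lost in 8 of 9 (up to 0.13), the exception being without GFP-negative replicate 2. Pmvk, phosphomevalonate kinase, was not called, with 20.2 ± 1.45 CPM in GFP-positive libraries against 23.4 ± 2.44 CPM in GFP-negative libraries (log2 fold change -0.21, interval of 2 SE on each side from -0.42 to -0.01, adjusted p = 0.107), although it was called without GFP-negative replicate 1 (adjusted p = 0.0443). Acat2, the thiolase that joins acetyl-CoA units before HMG-CoA is made, was 25.4, 27.5 and 24.3 CPM in GFP-positive libraries and 19.8, 29.8 and 24.1 CPM in GFP-negative ones. Its interval, -0.22 to 0.35, leaves room for a small difference either way (log2 fold change 0.07, SE 0.14, adjusted p = 0.716).

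From squalene to cholesterol, 10 of 11 enzymes (90.9%) were lower in GFP-positive cells and none was higher, against 29.2% and 26.1% of all tested genes. The median log2 fold change of the 11 was -0.74. Tm7sf2, a reductase of early sterol intermediates, had 6.29, 6.82 and 7.40 CPM in GFP-positive libraries, against 13.9, 18.7 and 21.7 CPM in GFP-negative ones. It had the largest difference of the branch (log2 fold change -1.40, SE 0.17, adjusted p = 0.000214). Msmo1, which removes methyl groups from the sterol ring and whose 3 CCAAT boxes are printed above, had 40.9, 52.7 and 34.4 CPM in GFP-positive libraries and 72.8, 100.6 and 94.9 CPM in GFP-negative ones (log2 fold change -1.06, SE 0.17, adjusted p = 0.00104). Dhcr7, which carries out the last reduction to cholesterol, had 27.1, 31.5 and 24.0 CPM in GFP-positive libraries and 45.0, 54.6 and 58.6 CPM in GFP-negative ones. In Dhcr7, no GFP-positive library reached the lowest GFP-negative one (log2 fold change -0.94, SE 0.13, adjusted p = 0.000439).

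The other sterol enzymes moved by less or with more spread. Fdft1, squalene synthase, averaged 85.3 ± 11.0 CPM in GFP-positive libraries and 141 ± 22.2 CPM in GFP-negative libraries (SD, n = 3 each; log2 fold change -0.73, adjusted p = 0.00182). Cyp51, the lanosterol demethylase, averaged 104 ± 15.7 CPM in GFP-positive libraries and 175 ± 34.7 CPM in GFP-negative libraries (log2 fold change -0.74, adjusted p = 0.00398). Nsdhl, the dehydrogenase that works with Msmo1, had a log2 fold change of -0.91, Ebp, the sterol isomerase, one of -0.74, and Sc5d, the desaturase before Dhcr7, one of -0.57, with adjusted p of 0.00134, 0.00412 and 0.00257. Lss, which closes the sterol ring, and Hsd17b7, a ketoreductase, were called with log2 fold changes of -0.46 and -0.48 (adjusted p = 0.0269 and 0.0323). Both calls were lost without GFP-positive replicate 1 or 3, without GFP-negative replicate 2 or 3, and without number 3 (adjusted p up to 0.198 for Lss and 0.215 for Hsd17b7, each without number 3).

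Squalene epoxidase, Sqle, an oxygen-requiring and rate-limiting step of the pathway, was the member of the branch that was not called. It had 98.2, 115.7 and 93.5 CPM in GFP-positive libraries, against 103.8, 151.1 and 118.7 CPM in GFP-negative ones. The groups overlapped, yet each GFP-positive library was lower than the GFP-negative one of its own number (log2 fold change -0.28, SE 0.14, adjusted p = 0.118). With the replicate number as a block it was called (log2 fold change -0.27, adjusted p = 0.0128), as it was without GFP-negative replicate 1 (adjusted p = 0.0362) or without number 2 (adjusted p = 0.0429). Counting of Fdft1 has a limit of its own, since 20.9% of its exon bases in the reference lie opposite exons of Ctsb. Ctsb, a lysosomal protease gene, was itself lower in GFP-positive cells (log2 fold change -1.06, adjusted p = 1.56e-05), and the strand setting of the counting is unknown here. Exons on the opposite strand also cover 18.6% of the exon bases of Scap, 16.0% of Hmgcs1, 10.7% of Idi1, 8.16% of Lss, 4.22% of Cyp51, 2.73% of Elovl1 and 2.54% of Srebf1. The models opposite Scap, Hmgcs1 and Idi1 are not among the genes of the raw counts, whereas those opposite Lss, Cyp51, Elovl1 and Srebf1 are.

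Summed over the 18 mevalonate and sterol enzymes, the level was 871, 988 and 762 CPM in GFP-positive libraries 1, 2 and 3, against 1319, 1871 and 1676 CPM in GFP-negative ones. Hmgcs1 was the largest single part of these sums, with means of 276 CPM in GFP-positive libraries and 683 CPM in GFP-negative ones. The sums of the groups were separate, but many of the enzymes also varied together within each group. GFP-positive replicate 2 was above its group mean in 15 of the 18 enzymes and GFP-positive replicate 3 in 3 of them, and GFP-negative replicate 1 was above its group mean in 1 of 18 while replicate 2 was in 17. Of all 14554 tested genes, 7253 were above their group mean in GFP-positive replicate 2 and 7375 in GFP-positive replicate 3. In GFP-negative replicates 1 and 2 these counts were 7124 and 7180. The median log2 ratio of the 18 enzymes was -0.49, -0.72 and -0.89 in pairs 1, 2 and 3. The plot of summed levels shows this spread beside that of the fatty acid genes.

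**Figure D3:**
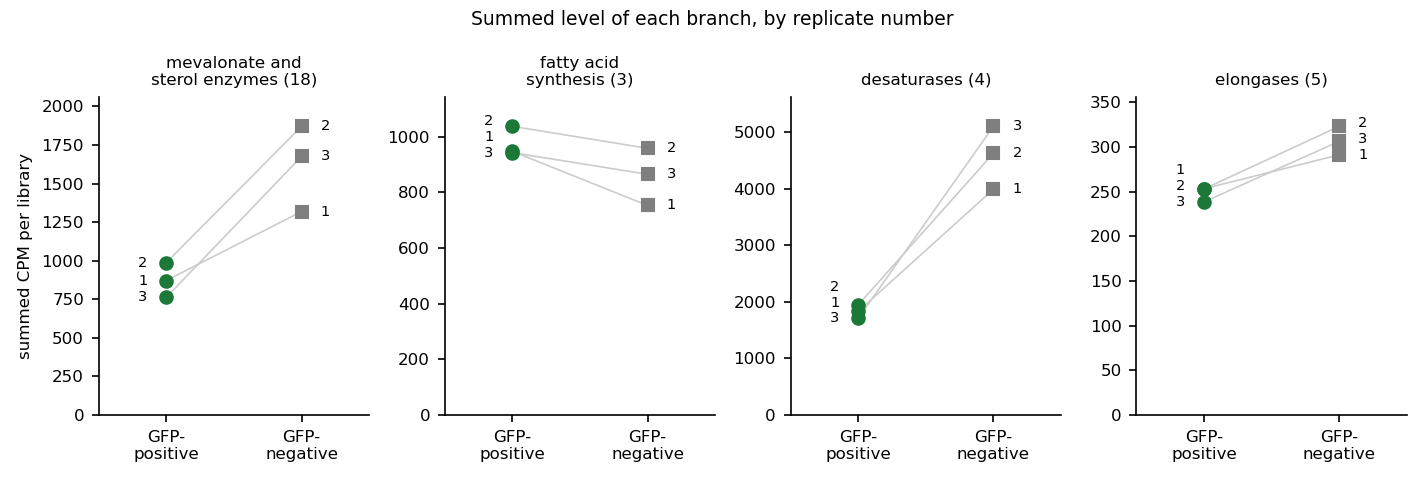
Summed CPM of each branch in each library, GFP-positive left and GFP-negative right. The replicate number is beside each point, and a line joins libraries of the same number. Hmgcs1 is the largest part of the sterol sums, and Scd2 of the desaturase sums. The GFP-positive sums are lower in each pair for the 18 sterol enzymes (762 to 988 against 1319 to 1871 CPM) and the desaturases (1707 to 1945 against 3989 to 5103 CPM), and higher in each pair for fatty acid synthesis.

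All 6 genes of the regulator group were called lower in GFP-positive cells, against 29.2% of all tested genes. Their median log2 fold change was -0.57. Stard4, a carrier of cholesterol between membranes and a known target of SREBP2, had 19.8, 23.3 and 16.8 CPM in GFP-positive libraries, against 38.8, 55.8 and 48.9 CPM in GFP-negative ones (log2 fold change -1.26, SE 0.16, adjusted p = 0.000296). Srebf1 (Entrez 20787), which encodes the SREBP proteins tied mainly to fatty acid genes, had 56.8, 57.0 and 57.0 CPM in GFP-positive libraries and 137.9, 83.0 and 165.1 CPM in GFP-negative ones (log2 fold change -1.18, SE 0.21, adjusted p = 0.00196). The GFP-positive libraries were almost equal, while the GFP-negative ones were spread over a wide range, with replicate 2 lowest. That library also had the highest Pdgfra and Sox10 of the GFP-negative group. Sox10, a factor of the oligodendrocyte lineage, was at 12.5 CPM there against 2.34 and 3.53 CPM in GFP-negative replicates 1 and 3. Of the other precursor markers, Gpr17, Olig1, Olig2, Lhfpl3 and C1ql1 were also highest in that library. Cspg4 was lowest there, at 153 CPM against 208 and 188 CPM in GFP-negative replicates 1 and 3. Any link of these markers to Srebf1 was not tested. Without GFP-negative replicate 2 the log2 fold change of Srebf1 was -1.40.

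Srebf2, which encodes the SREBP tied mainly to sterol genes, differed much less than Srebf1. It had 202.5, 222.2 and 185.3 CPM in GFP-positive libraries and 233.4, 275.6 and 251.6 CPM in GFP-negative ones (log2 fold change -0.32, SE 0.09, adjusted p = 0.0132). Its call was lost without GFP-positive replicate 1 (adjusted p = 0.0553), GFP-positive replicate 3 (0.056) or number 3 (0.117). The ratio of Srebf1 to Srebf2 counts within a library was 0.281, 0.257 and 0.308 in GFP-positive libraries against 0.591, 0.301 and 0.656 in GFP-negative ones. The GFP-negative replicate 2 ratio fell inside the GFP-positive range (two-sided exact permutation p = 0.2 without pairing, where 3 libraries against 3 cannot go below 0.1). Within each of the 3 pairs, though, the ratio was lower in the GFP-positive library. Per kilobase of exon, the level of Srebf2 was 40.0 CPM in the GFP-positive fraction against 49.9 CPM in the GFP-negative one, and that of Srebf1 13.2 against 29.9 CPM, so Srebf2 was the higher of the pair in both fractions.

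The INSIG retention proteins and the SCAP escort were also lower. Insig1, itself a well known SREBP target, had 72.5, 83.0 and 56.0 CPM in GFP-positive libraries and 95.7, 112.2 and 107.3 CPM in GFP-negative ones (log2 fold change -0.58, SE 0.13, adjusted p = 0.00691). Insig2, its relative, had 11.0, 10.8 and 9.57 CPM in GFP-positive libraries and 16.6, 15.4 and 14.2 CPM in GFP-negative ones (log2 fold change -0.56, SE 0.10, adjusted p = 0.00219). Both differed by about the same amount, and their count ratio did not separate the groups (exact permutation p = 1). Scap had 75.9, 81.9 and 78.3 CPM in GFP-positive libraries and 102.8, 81.2 and 100.5 CPM in GFP-negative ones, so GFP-negative replicate 2 lay inside the GFP-positive range (log2 fold change -0.27, SE 0.09, adjusted p = 0.0353). The Scap call was lost in 7 of 9 fits with a library or pair left out (adjusted p up to 0.286, without number 1), the exceptions being without GFP-negative replicate 2 and without number 2.

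Fatty acid synthesis did not share the lower level of the sterol enzymes. Acly, which makes cytosolic acetyl-CoA from citrate for both routes, had 231.0, 237.5 and 231.6 CPM in GFP-positive libraries and 185.2, 210.1 and 208.6 CPM in GFP-negative ones (log2 fold change 0.21, SE 0.06, adjusted p = 0.0179). Acaca, the carboxylase that commits acetyl-CoA to fatty acids, had 217.2, 246.7 and 222.1 CPM in GFP-positive libraries and 165.8, 213.3 and 190.2 CPM in GFP-negative ones (log2 fold change 0.27, SE 0.10, adjusted p = 0.0414). Every GFP-positive library lay above every GFP-negative one in both genes, by small margins. Fasn, fatty acid synthase, had 499.6, 553.3 and 489.1 CPM in GFP-positive libraries and 402.0, 534.8 and 466.1 CPM in GFP-negative ones, with overlap between the groups (log2 fold change 0.14, interval -0.07 to 0.34, adjusted p = 0.297). The interval of Fasn excludes a fall of the size seen in most sterol enzymes. Without GFP-negative replicate 2 it was called higher (log2 fold change 0.25, adjusted p = 0.0234).

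The calls of Acly and Acaca depended on the libraries used. Acly lost its call without GFP-positive replicate 3, number 1 or number 3 (adjusted p 0.0525 to 0.0884), and Acaca in 7 of 9 such fits (up to 0.145, without number 3), the exceptions being without GFP-negative replicate 2 and without number 2. The ratio of Hmgcs1 to Fasn counts within a library, which needs no scaling between libraries, was 0.561, 0.564 and 0.481 in GFP-positive libraries against 1.35, 1.49 and 1.52 in GFP-negative ones. Those groups did not overlap, with a mean log2 difference of -1.44 (two-sided exact permutation p = 0.1, the smallest that this design allows). The pair was chosen with earlier results of these data known, so the ratio restates the differences of both genes and is no separate support.

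All 4 desaturases were lower in GFP-positive cells, against 29.2% of all tested genes. Their median log2 fold change of -1.23 was the lowest of any branch. Scd1 and Scd2 put the first double bond into saturated fatty acids, and Scd2 is the main form in mouse brain. Scd2 (Entrez 20250) had 1419, 1491 and 1318 CPM in GFP-positive libraries, against 3094, 3577 and 3936 CPM in GFP-negative ones (log2 fold change -1.33, SE 0.10, adjusted p = 2.19e-05). Per kilobase of exon it was the most abundant of the 37 transcripts in both fractions, with 258 CPM in the GFP-positive fraction against 648 CPM in the GFP-negative one. Scd1 (Entrez 20249) had 88.7, 102.6 and 72.3 CPM in GFP-positive libraries and 278.6, 313.6 and 361.5 CPM in GFP-negative ones. It had the largest log2 fold change of all members, -1.85 (SE 0.14, adjusted p = 2.23e-05). The ratio of Scd1 to Scd2 counts was 0.0625, 0.0688 and 0.0548 in GFP-positive libraries and 0.0900, 0.0877 and 0.0918 in GFP-negative ones, without overlap (exact permutation p = 0.1, the smallest possible). This pair, too, was chosen with earlier results of these data known. Scd1 and Scd2 are similar in sequence, and counts shared between them cannot be separated here.

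The desaturases of polyunsaturated fatty acids, Fads1 and Fads2, moved as a pair. Fads1 had 164.4, 176.0 and 163.8 CPM in GFP-positive libraries and 321.0, 381.9 and 401.1 CPM in GFP-negative ones (log2 fold change -1.13, SE 0.09, adjusted p = 2.37e-05). Fads2 averaged 163 ± 11.5 CPM in GFP-positive libraries and 351 ± 54.8 CPM in GFP-negative libraries (SD, n = 3 each; log2 fold change -1.11, SE 0.11, adjusted p = 9.59e-05). Their count ratio lay between 1.00 and 1.07 in GFP-positive libraries and between 0.991 and 1.09 in GFP-negative ones, so the groups overlapped (log2 difference -0.02, exact permutation p = 0.7).

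The 5 elongases, which lengthen fatty acids in the endoplasmic reticulum, included 2 called lower, 1 higher and 2 not called, shares of 40% and 20% that lie near the 29.2% lower and 26.1% higher of all tested genes. Elovl5 (Entrez 68801), which elongates polyunsaturated fatty acids of medium length, had 84.1, 80.5 and 76.0 CPM in GFP-positive libraries and 137.8, 146.5 and 141.9 CPM in GFP-negative ones (log2 fold change -0.82, SE 0.06, adjusted p = 1.48e-05). Elovl2 (Entrez 54326), which takes the products of Elovl5 further towards docosahexaenoic acid, went the other way, with 43.5, 37.2 and 41.5 CPM in GFP-positive libraries and 24.9, 31.5 and 30.2 CPM in GFP-negative ones (log2 fold change 0.50, SE 0.10, adjusted p = 0.00406). It was the only one of the 3 members called higher that kept its call in all 9 fits with a library or pair left out. Elovl2 and Elovl5 were chosen for a ratio with earlier results known, so it restates their opposite calls. The ratio of Elovl2 to Elovl5 counts was 0.518, 0.462 and 0.546 in GFP-positive libraries against 0.181, 0.215 and 0.213 in GFP-negative ones, again without overlap (exact permutation p = 0.1, the smallest possible).

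Elovl1, which makes very long saturated chains used in sphingolipids, had 6.13, 7.70 and 7.34 CPM in GFP-positive libraries and 11.9, 11.7 and 11.0 CPM in GFP-negative ones (log2 fold change -0.71, SE 0.12, adjusted p = 0.00137). Elovl6, which extends palmitate to stearate, was close in both groups, at 116 ± 6.63 CPM in GFP-positive libraries against 120 ± 8.83 CPM in GFP-negative libraries (SD, n = 3 each; interval of the log2 fold change -0.19 to 0.09, adjusted p = 0.579). Elovl7 was low, at 3.86 ± 0.421 CPM in GFP-positive libraries against 4.06 ± 0.538 CPM in GFP-negative libraries, and its interval was wider (-0.41 to 0.28, adjusted p = 0.76). The remaining member, Acsl3, which activates fatty acids for storage in lipid droplets, had 87.6, 101.0 and 87.1 CPM in GFP-positive libraries and 88.9, 115.3 and 110.9 CPM in GFP-negative ones. It was not called (log2 fold change -0.19, interval -0.40 to 0.02, adjusted p = 0.154), except without GFP-negative replicate 1 (adjusted p = 0.0195).

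**Figure D4:**
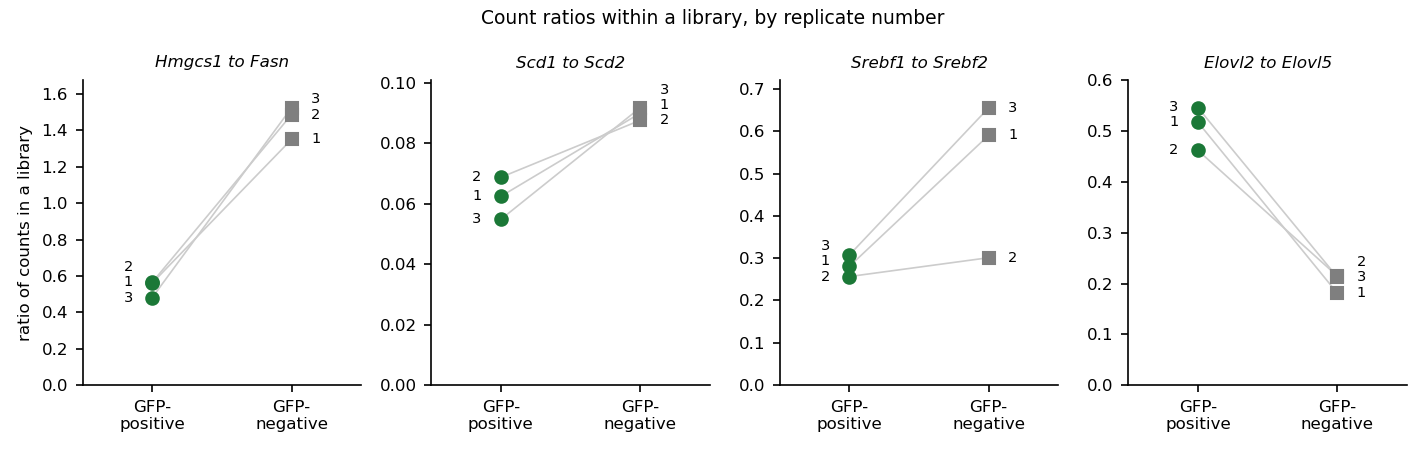
Ratio of the counts of 2 genes within each library, GFP-positive left and GFP-negative right. Replicate numbers are shown, and lines join libraries of the same number. The gene pairs were chosen with earlier results of these data known. The groups separate for Hmgcs1 to Fasn, Scd1 to Scd2 and Elovl2 to Elovl5, whereas GFP-negative replicate 2 is at 0.301, within the GFP-positive range, for Srebf1 to Srebf2.

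Neighbouring steps of lipid metabolism were counted from 5 further gene lists, to be read against the 29.2% of all tested genes that were lower and the 26.1% that were higher. Fatty acid oxidation, which breaks down what the synthesis genes make, was lower in 16 of 19 genes (84.2%) and higher in none, with a median log2 fold change of -0.77. Acadl, an acyl-CoA dehydrogenase, had 65.8, 70.4 and 71.6 CPM in GFP-positive libraries and 290.5, 247.7 and 327.1 CPM in GFP-negative ones (log2 fold change -2.06, adjusted p = 3.59e-06). Hadh, the hydroxyacyl-CoA dehydrogenase of mitochondria, had a log2 fold change of -2.02 (adjusted p = 1.48e-05). Cpt1c, Slc25a20 and Acaa1a were not called.

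Genes that supply acyl-CoA or complete the elongation cycle were lower in 10 of 19 tested (52.6%) and higher in 2 (10.5%), against 29.2% and 26.1% of all tested genes, with a median of -0.30. Me1, malic enzyme, a source of NADPH for lipid synthesis, had 26.3, 27.2 and 29.4 CPM in GFP-positive libraries and 136.8, 103.3 and 160.4 CPM in GFP-negative ones (log2 fold change -2.27, adjusted p = 1.21e-05). Mid1ip1, which promotes polymerisation of acetyl-CoA carboxylase, had a log2 fold change of -1.54 (adjusted p = 1.29e-05). Elovl4, an elongase of very long chains, was higher, at 54.9, 54.5 and 53.6 CPM in GFP-positive libraries and 34.1, 30.9 and 34.1 CPM in GFP-negative ones (log2 fold change 0.72, adjusted p = 4.93e-05). Thus Elovl2 and Elovl4 were called higher while Elovl1 and Elovl5 were called lower. The count of lower genes in this list was 6 without number 3.

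Sterol transport, storage and efflux had 10 lower (52.6%) and 4 higher (21.1%) of 19 tested, against 29.2% and 26.1% of all tested genes, with a median of -0.41. Scarb1, a lipoprotein receptor, and Soat1, which esterifies cholesterol for storage, were lower (log2 fold changes -1.09 and -0.96, adjusted p = 2.3e-05 and 6.13e-05). Abcg1, a cholesterol exporter induced by LXR receptors, was higher, at 14.8, 23.8 and 16.0 CPM in GFP-positive libraries and 3.03, 6.44 and 3.73 CPM in GFP-negative ones (log2 fold change 2.05, adjusted p = 0.000605). Of the other LXR targets in the list, named after their values were seen, Mylip, which directs lipoprotein receptors to degradation, was higher (1.13, adjusted p = 0.00133), and Abca1, another exporter, was lower (-0.67, adjusted p = 0.0024). Nr1h3, which encodes an LXR receptor, was lower but scarce, with means of 0.819 CPM in GFP-positive libraries and 2.34 CPM in GFP-negative ones (-1.51, adjusted p = 0.00393). Nr1h2, which encodes the other LXR receptor, was more abundant and not called, with means of 53.1 and 56.1 CPM (-0.08, adjusted p = 0.382). The exporter gene Abcg4 was not called either (-0.22, adjusted p = 0.0922). The count of higher genes was 2 without number 1 or number 3.

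The machinery that cleaves SREBP precursors or degrades sterol-sensing proteins was lower in 3 of 8 genes (37.5%) and higher in 2 (25%), with a median of -0.03. These shares are near the 29.2% and 26.1% of all tested genes. Erlin2, of the degradation pathway in the endoplasmic reticulum, was lower (log2 fold change -0.60, adjusted p = 3.68e-05), and Rnf145, a ubiquitin ligase that acts on SCAP, was higher (0.54, adjusted p = 0.000139). Non-sterol branches of the mevalonate pathway, which make prenyl groups, dolichol and ubiquinone, were lower in 3 of 12 genes (25%) and higher in 1 (8.33%), both below the shares of all tested genes, with a median of -0.07. Those 4 were Fnta (-0.28, adjusted p = 0.00991), Zmpste24 (-0.30, adjusted p = 0.012), Rce1 (-0.34, adjusted p = 0.0435) and, in the other direction, Ggps1 (0.20, adjusted p = 0.0249). In every fit with a library or pair left out, fewer genes of this list were called lower, 0 to 2 against 3. Without number 3 none of these 4 was called, and without GFP-positive replicate 1 or number 1 the count was 1 lower and 0 higher. Ggps1 also lost its call without GFP-negative replicate 3, and SREBP processing had 1 higher gene without number 3. The plot of the lists sets these counts side by side with those of the members.

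**Figure D5:**
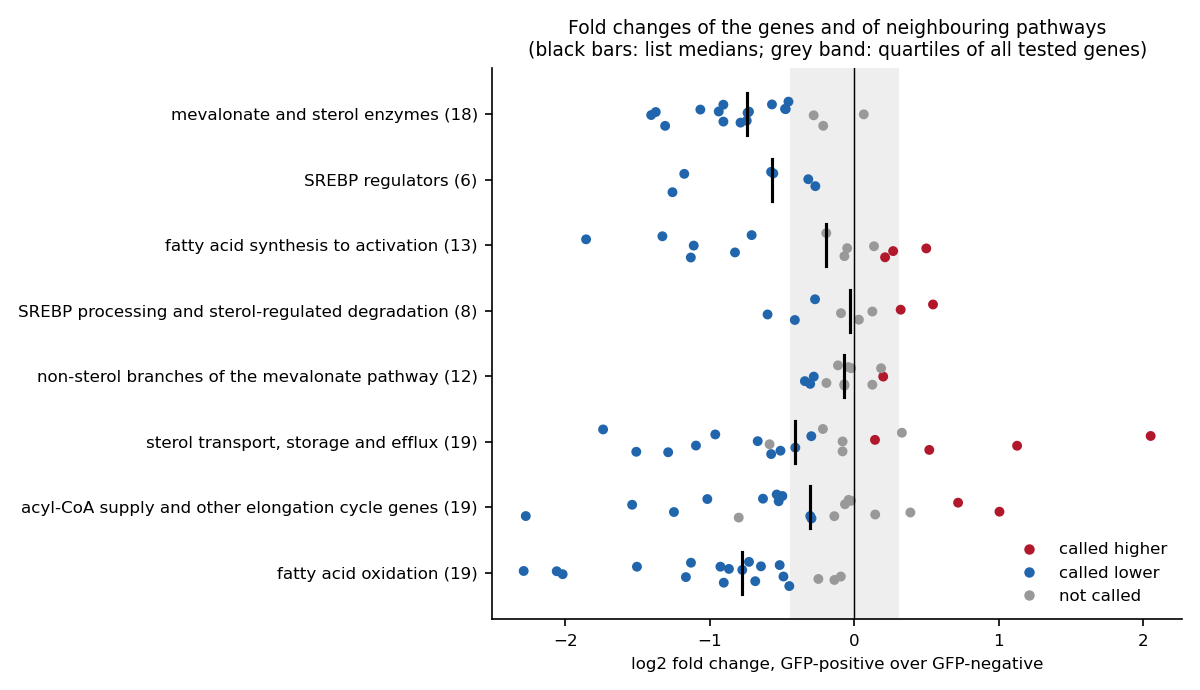
Log2 fold changes, GFP-positive over GFP-negative, of the tested members and of the 5 further lists, 1 point per gene, coloured by call. Black bars are list medians and the grey band spans the quartiles of all tested genes, -0.44 to 0.30. Sterol enzymes and fatty acid oxidation lie mostly left of 0, with medians of -0.74 and -0.77, whereas SREBP processing and the non-sterol branches centre near 0.

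Cell type markers moved with the sort and so with every difference above. All 8 oligodendrocyte precursor markers were higher, with sums of 4390 to 4638 CPM in GFP-positive libraries and 2231 to 2518 CPM in GFP-negative ones. All 9 astrocyte markers were lower, with sums of 473 to 592 CPM in GFP-positive libraries and 3452 to 4320 CPM in GFP-negative ones, as were all 5 neural stem cell markers, at 1610 to 1822 CPM in GFP-positive libraries and 5252 to 6005 CPM in GFP-negative ones. Their part in the lower sterol and desaturase levels was not tested. Of 7 markers of myelinating oligodendrocytes only 2 passed the filter, and their sum was 23.3 to 36.1 CPM in GFP-positive libraries and 17.7 to 19.8 CPM in GFP-negative libraries, so transcripts of mature oligodendrocytes were scarce in both. Of 5 ependymal markers 2 were tested and lower, of 5 neuronal markers 2 were tested and higher, with sums of at most 16.5 CPM and 25.5 CPM in any library. Of the 2 ependymal markers, Rsph1 passed the filter only because of its GFP-negative libraries. It had 3, 2 and 5 counts in GFP-positive libraries and 31, 17 and 17 in GFP-negative ones. The other, Foxj1, passed in both groups. No microglial or Schwann cell marker passed the filter, and their sums were at most 0.272 CPM and 0.273 CPM in any library. Pifo and Tmem212 of the ependymal list, Slc17a6 of the neuronal list and Cldn5 of the endothelial list were at 0 in all 6 libraries. Endothelial markers summed to at most 2.02 CPM and fibroblast or mural markers to at most 1.98 CPM.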

How the data were processed

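RNA was sequenced in bulk from 3 GFP-positive and 3 GFP-negative sorted samples, grouped by the fraction in their titles. The authors deposited raw read counts per gene, with no normalization, per the file headers. The tools in the submitters' processing notes are TopHat2 2.1.1 and featureCounts 2.0.0 with build mm39, besides SAMtools 1.9, bcl2fastq 2.20.0.422 and the quality tools MultiQC 1.9 and FastQC 0.11.8. For the annotation, the strand setting, duplicates and multiple mapping, the processing is not given in the sources used here. The kit was SMART-Seq Stranded, per the labels' protocols. Of the 26264 genes, 4856 had no count in any library.

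Counts were filtered with filterByExpr (minimum count 10, about 0.287 CPM), scaled by TMM and tested with edgeR 4.0.16 (quasi-likelihood F test, R 4.3.3) over 14554 genes with Benjamini-Hochberg adjustment, threshold 0.05. The SE is the absolute log2 fold change divided by the root of F, and intervals span 2 SE on each side. CPM are TMM-scaled, and depth of 31067850 to 45207335 counts covers counting error only. The script was tested on simulated data. Count ratios within a library were compared by an exact two-sided permutation test for each of 6 gene pairs, with raw p, which cannot go below 0.1.

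The titles give each library number 314, 315 or 316, here replicates 1, 2 and 3. After subtraction of group means, libraries with the same number had correlations across genes of 0.271, 0.433 and 0.233, each over the limit of 0.1. Of libraries with different numbers, GFP-positive replicate 3 and GFP-negative replicate 1 were also over it, at 0.177. Each library still correlated most with the library of its own number in the other group, so the numbers were taken to pair the samples. The labels do not say whether they are animals, cultures or days, and the p-values therefore measure only a spread between samples that may be technical. The main fit and the permutation tests did not use the pairing, and a replicate block was among the alternatives. Within a group, libraries differed beyond counting noise, with a chi-square of 9.83 to 34.2 for each degree of freedom.

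Members, lists and ratios were chosen with earlier results of these data known. Each regulator, and in each other branch the 3 members with the smallest p, is given by library. Of each further list, the 3 genes with the smallest p and any called gene of opposite direction to the median with the smallest p are named, except that some of these genes are not reported here. Exon lengths and overlaps come from GENCODE M21, and promoters from RefSeq GRCm38.p6, matched by symbol. Alternatives were RLE, upper-quartile and median-centred scaling, 2 other filters, DESeq2 1.42.0, limma-voom (limma 3.58.1), a replicate block, and leaving out each library or pair.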

Additional observations from a re-analysis of the deposited data

How the results depend on the processing

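Under the 8 alternatives that kept all libraries, 26 to 28 members were called lower and 3 higher, with medians of -0.73 to -0.65. With a library or pair left out, 21 to 28 members were lower, 1 to 4 were higher, and the median was -0.77 to -0.58. The member count called higher was 1 without GFP-positive replicate 3, without number 1 and without number 3. Over all genes, 2951 to 4468 were called lower and 2450 to 4169 higher with a library or pair left out, the lowest count of higher genes being without number 3. The replicate block called 28 members lower and 3 higher, against 27 and 3 without it, and 4422 and 3918 of all genes. Of the 37 members, Sqle was the one whose call the block changed. Of the 30 called members, 22 kept their call in all 17 alternatives, and none turned direction. Acat2, Elovl6 and Elovl7, which were not called, changed sign with a library left out, with log2 fold changes of -0.067 to 0.24, -0.10 to 0.019 and -0.25 to 0.071. Mvd also lost its call with limma-voom (adjusted p = 0.0625), and Idi1 with DESeq2 (0.082) and with no low-count filter (0.0697). The cause of these changes was not tested. Idi1 had at most 15 counts in any library, and why it was so low was not tested.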

Other observations

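Acat3, a close copy of Acat2, had 0.981, 1.08 and 1.12 CPM in GFP-positive libraries and 1.82, 2.29 and 3.18 CPM in GFP-negative ones, a log2 fold change of -1.19, whereas Acat2 was not called. Counts of the 2 genes may be shared where their sequences match. Scd4 had 0.981, 0.684 and 0.490 CPM in GFP-positive libraries and 0.394, 0.797 and 0.454 CPM in GFP-negative ones (log2 fold change 0.39, adjusted p = 0.447). Scd3 was at most 0.218 CPM and Elovl3 at most 0.182 CPM in any library, and neither passed the filter. Acss2, which makes acetyl-CoA from acetate, was lower, at 22.7, 23.4 and 19.7 CPM in GFP-positive libraries and 43.0, 53.6 and 59.5 CPM in GFP-negative ones (log2 fold change -1.25, adjusted p = 9.7e-05). Acsl1, which activates long fatty acids, was higher, at 8.36, 9.56 and 9.90 CPM in GFP-positive libraries and 4.34, 5.61 and 3.92 CPM in GFP-negative ones (log2 fold change 1.00, adjusted p = 0.00111). Of the genes that encode acetyl-CoA sources, Acly was thus called higher while Acss2 was called lower.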
